A study of Mus musculus with 4 samples.

Results

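The alpha class of glutathione S-transferases was followed through 4 genes, Gsta1, Gsta2, Gsta3 and Gsta4, in chemically transformed mouse fibroblasts with and without diethyl maleate (DEM). All probes on the array that carried one of these symbols were taken, which gave 5 of 61307 probes: 1 each for Gsta1, Gsta2 and Gsta4 and 2 for Gsta3. The 4 genes were among 24659 genes and transcripts compared, and all 5 probes passed the filter on dim probes. The genes were chosen with their difference between DEM and untreated cells already known, so their values are given as a description, with no test.

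The cells were C3H10T1/2, an established line of mouse embryo fibroblasts in which transformed foci can be counted. All of them had been transformed with 3MC (2.5 µg/ml, 2 days), a polycyclic hydrocarbon carcinogen also called MCA, and then with the phorbol ester TPA (100 ng/ml, given over 2 weeks), followed by 4 weeks in normal medium. Transformed cells with no further treatment (2 arrays, untreated 1 and 2) were set against the same transformed cells given 0.25 mM DEM (2 arrays, DEM 1 and 2). Cells that had not been transformed were not analysed here, and how long DEM was given is not stated in the labels. Separate cultures are not named for the 2 arrays of a group, so every p-value reflects how far these arrays scatter, and that scatter may be purely technical.

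Alpha class transferases are cytosolic enzymes that work as dimers and join glutathione to electrophiles, and several of them also reduce organic peroxides. They are best known as abundant liver proteins and as genes switched on by electrophiles and antioxidants. That response runs through the transcription factor NRF2, which KEAP1 normally marks for breakdown and which binds DNA elements called antioxidant response elements together with small MAF proteins. DEM is an electrophile that is itself joined to glutathione and so depletes it. Within the class, Gsta3 encodes the mouse liver enzyme known for inactivating the epoxide of aflatoxin, and Gsta4 encodes the enzyme with a preference for hydroxynonenal, an aldehyde released from oxidized lipids.

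The probe sequences were compared with each other and with the other probes of the array, but not with transcripts. They are given 5′ to 3′ as in the deposited files, with capitals for the stretch in which the Gsta1 and Gsta2 probes overlap.
Gsta1: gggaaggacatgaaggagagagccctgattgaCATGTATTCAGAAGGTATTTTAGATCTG
Gsta2: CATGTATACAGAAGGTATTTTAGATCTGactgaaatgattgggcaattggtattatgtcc
Gsta3, probe 1: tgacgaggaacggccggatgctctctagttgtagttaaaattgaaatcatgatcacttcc
Gsta3, probe 2: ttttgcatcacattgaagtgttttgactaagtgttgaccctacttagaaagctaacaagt
Gsta4: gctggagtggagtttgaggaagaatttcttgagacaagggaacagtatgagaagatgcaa
The last 28 bases of the Gsta1 probe matched the first 28 bases of the Gsta2 probe at 27 positions, with 1 difference, A8T (the Gsta2 base, its position counted from 1 at the 5′ end of the Gsta2 probe, then the Gsta1 base). The longest run shared without a mismatch was 20 bases. The Gsta2 probe continues past that stretch. Whether it also binds Gsta1 RNA, or the Gsta1 probe Gsta2 RNA, was not tested, so signal shared between them cannot be told apart. Of the 4 accessions listed in the files for the Gsta1 probe, those found in the RefSeq gene table belong to 2 loci, Gsta1 and Gm10639. Gm10639 is an alpha class locus between Gsta1 and Gsta2 on chromosome 9. The signal of the Gsta1 probe cannot be divided between these loci. No other alpha class locus had a probe of its own, and whether the Gsta1 probe also matches transcripts of those loci was not tested. Neither Gsta3 probe, nor the Gsta4 probe, shared a run of 16 bases on the same strand with any other probe of the array, and the Gsta1 and Gsta2 probes shared one only with each other.

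Signal of the Gsta1 and Gsta2 probes went from near the background of the array to among the brighter signals in DEM-exposed cells. A level here is the log2 processed signal of a probe after subtraction of the 75th percentile of its array, so a probe at 0 is as bright as that percentile. Gsta1 had levels of -3.93 (untreated 1) and -4.45 (untreated 2) against 5.02 (DEM 1) and 4.99 (DEM 2), from processed signals of 46.0 and 34.2 against 14554 and 13076. The DEM arrays lay close together and the groups stood far apart. The mean level was -4.19 ± 0.37 (SD, n = 2) without and 5.00 ± 0.021 (SD, n = 2) with DEM, a difference of 9.19 on the log2 scale, or 585-fold. Taken array by array, the fold lay between 484 and 707.

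Gsta2 was not well above background on either untreated array. Its processed signal there was 5.52, which the scanner software had put in as a substitute for a low signal, and 16.9. On the DEM arrays it was 6436 and 5576, with levels of 3.84 and 3.76 (mean 3.80 ± 0.058, SD, n = 2). Because the untreated level has only an upper bound, the change in processed signal is given as a lower bound. By it, Gsta2 was at least 389.8-fold higher with DEM. It holds for this background correction only, as normexp correction, described below, gave a smaller difference. That bound sets the DEM mean against an untreated level of -4.81, the untreated mean of the dimmest level at which a probe still counted as well above background, or of its own level where that was higher. The measured difference was 10.02 on the log2 scale, and it rests on signals that have no order below background.

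Gsta3, the member on chromosome 1, was present at a low but measured level in untreated cells and was much higher with DEM on both probes. The first probe had levels of -2.75 and -2.68 without DEM, and 4.92 and 3.79 with it. Its mean went from -2.72 ± 0.055 to 4.36 ± 0.80 (SD, n = 2), a difference of 7.07 or 135-fold, with array by array folds between 88.5 and 205. The second probe, from another stretch of the transcript, had levels of -3.40 and -3.86 without DEM, and 4.19 and 2.86 with it. Its mean went from -3.63 ± 0.32 to 3.53 ± 0.94 (SD, n = 2), a difference of 7.16 or 143-fold. The difference was thus nearly the same on both probes, and on both DEM 1 was the higher array.

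Gsta4 behaved unlike the other members, being well expressed before DEM and little higher after it. Its level was 2.78 and 2.92 without DEM, and 3.93 and 3.14 with it, a mean of 2.85 ± 0.099 against 3.53 ± 0.56 (SD, n = 2). The difference was 0.68 on the log2 scale, or 1.60-fold, with array by array folds between 1.16 and 2.21. After scaling the groups did not overlap, but the processed signals did, at 4825 and 5665 without and 6854 and 3625 with DEM. Without DEM 1 the difference was 0.28, and without DEM 2 it was 1.08. The median difference over all genes was 0.16.

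**Figure D1:**
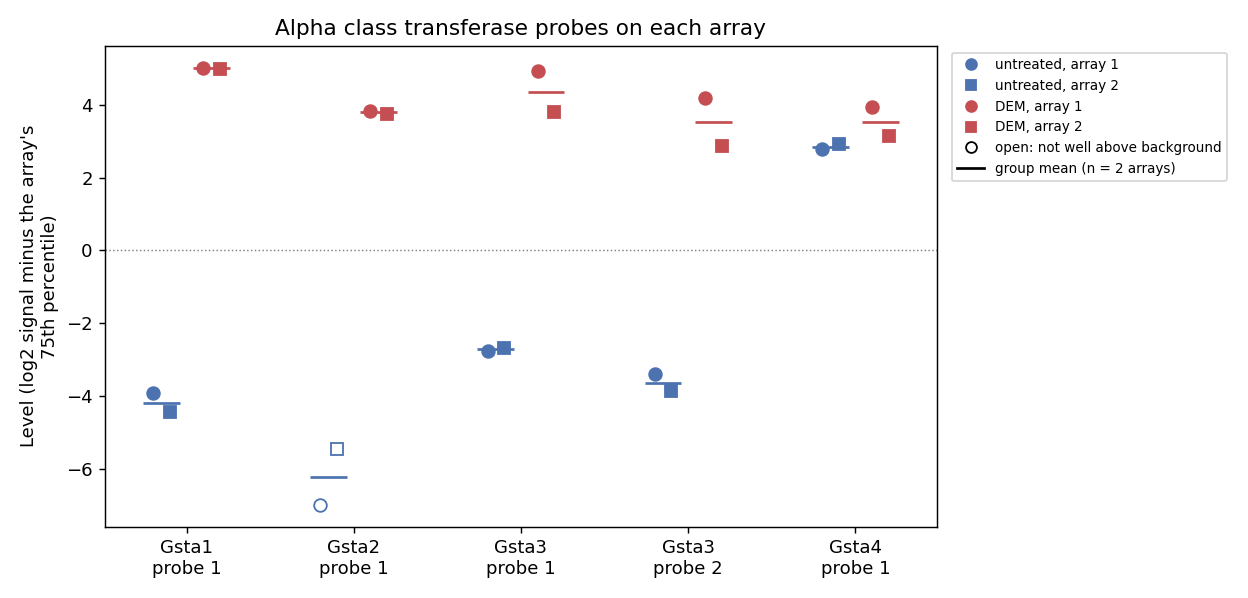
The plot gives the level of each alpha class probe on each of the 4 arrays (log2 signal relative to the 75th percentile of its array), with circles for array 1 and squares for array 2 of a group, blue for untreated and red for DEM, and bars for group means. The probes of Gsta1, Gsta2 and Gsta3 sit below 0 on the untreated arrays and above 0 on the DEM arrays, while Gsta4 sits above 0 on all 4.

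Set among all genes, the probes of Gsta2, Gsta1 and Gsta3 lay at the far upper end. Among 21199 genes well above background on all 4 arrays, the Gsta1 difference ranked 1 from the highest. The Gsta3 probes ranked 3 and 2, whereas Gsta4 ranked 4187. Each probe was ranked against 1 probe per gene, and Slc7a11 (7.12) lay between the Gsta3 probes. Genes not well above background on all 4 arrays were left out of the ranking, and 3 of them lay between 7.75 and 8. Gsta2 was given no rank, because its untreated level has only a bound. For comparison, 95% of genes had a difference under 1.43, and 5% lay below -1.83. Both DEM arrays lay above both untreated arrays for all 5 alpha class probes, as they did for 42.4% of all genes, and none had both below, as 26% of all genes did. The members were chosen on this contrast, so nothing is read from that count.

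**Figure D2:**
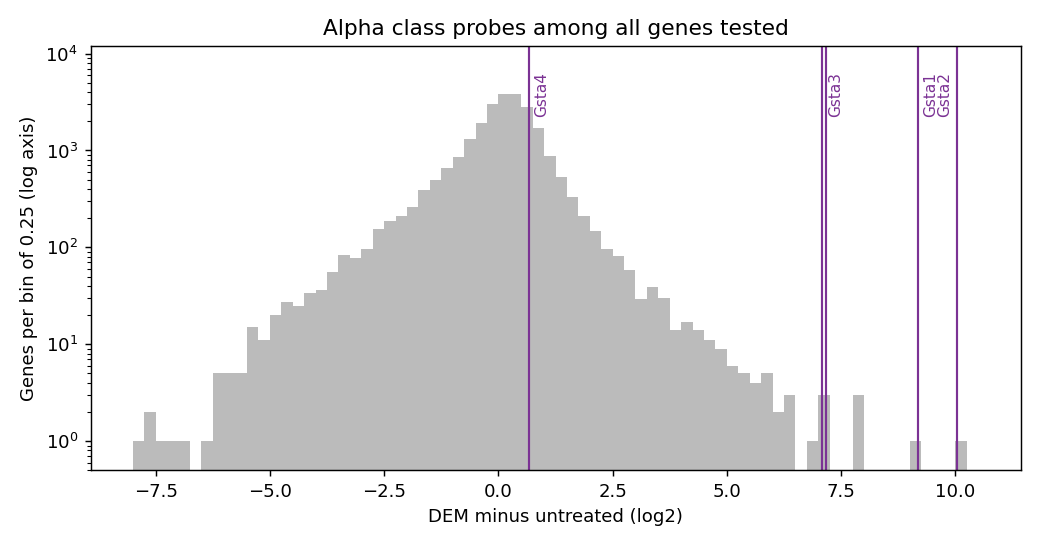
The histogram gives the log2 difference between DEM and untreated cells for 24659 genes in bins of 0.25, on a log count axis, with purple lines at the 5 alpha class probes. The lines of Gsta1 and Gsta3 lie at 7.07 to 9.19, far to the right of nearly all genes, the Gsta2 line at 10.02 rests on untreated signals below background, and the Gsta4 line at 0.68 lies within the main body.

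The alpha class genes also differed in how well the DEM arrays repeated each other. Gsta1 and Gsta2 gave nearly the same level on both, with gaps of 0.029 and 0.082 on the log2 scale. Gsta3 was higher on DEM 1 than on DEM 2 by 1.13 on the first probe and by 1.33 on the second, and Gsta4 was higher on DEM 1 by 0.79. The gap between the DEM arrays had a median of 0.29 over all genes. Of all genes, 6.79% and 4.82% had a wider gap than the Gsta3 probes and 13.5% a wider gap than Gsta4, against 94.6% for Gsta1 and 85.0% for Gsta2. DEM 1 was the higher array for 46.7% of all genes. Between the untreated arrays the order was different. The gap there was 0.52 for Gsta1, 0.078 and 0.46 for the Gsta3 probes and 0.14 for Gsta4, against a median of 0.20 over all genes. For Gsta2 it was 1.52, between signals not well above background. With 2 arrays per group these gaps were not tested.

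For Gsta1, Gsta2 and Gsta3 the size of the difference moved more with the background correction than with the scaling, while for Gsta4 it moved slightly more with the scaling. With normexp correction, which adds an offset of 50 and so raises dim signals, the differences were 7.73 for Gsta1, 6.85 for Gsta2, 6.26 and 5.91 for the Gsta3 probes and 0.54 for Gsta4. With scaling to spike-in RNA they were 9.03 for Gsta1, 9.87 for Gsta2, 6.91 for the first Gsta3 probe and 0.52 for Gsta4. With quantile normalization the same probes gave 9.04, 9.79, 6.96 and 0.50. Direction and order of size held for Gsta1, Gsta3 and Gsta4 under these settings.

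The sequence around the start of transcription was compared because Gsta1, Gsta2 and Gsta3 moved together. RefSeq promoter sequences (GRCm38.p6, 250 bases before to 50 bases after the start) were at hand for these 3 genes. They are printed in the direction of transcription, with capitals for the motifs found.
Gsta1, chr9:78230419-78230718, plus strand: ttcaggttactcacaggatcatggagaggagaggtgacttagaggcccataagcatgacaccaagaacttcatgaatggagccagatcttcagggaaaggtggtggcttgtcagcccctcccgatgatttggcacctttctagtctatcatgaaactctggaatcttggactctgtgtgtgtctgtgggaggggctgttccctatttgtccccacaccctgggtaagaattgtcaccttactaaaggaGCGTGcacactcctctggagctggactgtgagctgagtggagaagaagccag
Gsta2, chr9:78347096-78347395, minus strand: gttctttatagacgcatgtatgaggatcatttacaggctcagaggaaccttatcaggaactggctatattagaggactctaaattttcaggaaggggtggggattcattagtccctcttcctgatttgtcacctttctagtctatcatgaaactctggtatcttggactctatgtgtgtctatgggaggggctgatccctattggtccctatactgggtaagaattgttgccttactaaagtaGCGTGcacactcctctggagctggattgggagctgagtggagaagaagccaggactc
Gsta3, chr1:21240335-21240634, plus strand: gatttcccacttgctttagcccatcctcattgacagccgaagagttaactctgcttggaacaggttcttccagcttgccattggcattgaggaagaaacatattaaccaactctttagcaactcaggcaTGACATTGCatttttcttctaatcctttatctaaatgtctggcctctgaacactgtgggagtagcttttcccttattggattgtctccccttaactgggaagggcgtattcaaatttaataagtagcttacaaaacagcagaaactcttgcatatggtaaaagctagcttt
The Gsta1 and Gsta2 windows were alike, with 238 identical bases in 316 alignment columns (75.3%) and a longest shared run of 29 bases. Gsta3 shared 54.9% of columns with Gsta1 and 52.9% with Gsta2, with no run above 9 bases. Gm3776 and Gm10639, the alpha class loci between Gsta1 and Gsta2, matched the Gsta1 window at 90.7% and 88.9% of columns. Motifs of 3 kinds were searched on both strands. The core of the antioxidant response element, TGACNNNGC, was found in Gsta3 as TGACATTGC, at position -121 relative to the start of transcription, and not in the other windows; it was in 12.4% of 32851 windows of the same length. The core of the xenobiotic response element, GCGTG, to which the aryl hydrocarbon receptor binds, was found next to the start in Gsta1 and Gsta2 and is in 32.4% of windows. The AP-1 site TGANTCA was in none of these windows and is in 7.81% of all. These matches describe letters in a short window and do not show binding. Sequence outside the window was not searched, so a motif missing here may lie farther from the start.

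Among 12650 other genes of plain symbol, Slc7a11 had the pattern most like each of Gsta1, Gsta2 and Gsta3. Slc7a11 encodes the subunit of the cystine transporter that supplies cysteine for glutathione. Likeness was measured as the root mean square difference over the 4 arrays after each gene was set relative to its own mean, and smaller is more alike. It was 0.35 on the log2 scale between Slc7a11 and Gsta3, 1.04 to Gsta1 and 1.63 to Gsta2. The next were Glyat, a glycine acyltransferase gene (0.63 to Gsta3), and Spdye4b (0.67 to Gsta3), both well above background on the DEM arrays alone. For Gsta4 the nearest were Prpf38b (0.027), Siah2 (0.036) and Clic4 (0.041), which share its modest difference and its higher level on DEM 1. The size of a difference counts in this measure, so members with large differences come out nearest to other genes with large differences. With 4 arrays many genes share such a pattern, and the values describe only these arrays.

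The other classes of glutathione transferase were mixed, with members higher, lower and unchanged in call. The 19 measured genes were counted by family, Alox5ap among them. Of these, 6 rose, 8 fell and 5 did not pass (limma adjusted p under 0.05), where 15.5% of all genes rose and 11.8% fell. The median difference was -0.98, or -0.44 with 3 genes at their lower bound, against 0.16 over all genes. The largest rise among them was 2.39 and the largest fall -4.85 on the log2 scale. Without untreated 1 the counts were 1 higher and 3 lower, without untreated 2 they were 2 and 3, and under spike-in scaling 0 and 5.

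Of the mu class, the other large cytosolic family, 2 of 6 measured genes rose and 2 fell. Gstm1 rose 1.95-fold (log2 0.96 ± 0.13 SE, n = 2 per group, limma adjusted p = 0.00548) and Gstm3 rose 1.72-fold. Gstm5 fell by 1.22, and Gstm6, not well above background with DEM, was at least 1.36-fold lower. Gstm2 (-0.53) and Gstm7 (-1.08, not well above background with DEM) did not pass. All 4 calls were lost without untreated 1 (limma adjusted p from 0.0634 to 0.197) and without untreated 2 (0.0625 to 0.0852), and that of Gstm3 without DEM 1 (0.0555), under quantile normalization (0.0926) and without a variance trend (0.0725). Under spike-in scaling Gstm1, Gstm3 and Gstm5 did not pass (limma adjusted p from 0.450 to 1.00), nor did Gstm6 with normexp correction (0.736). Gstm2 passed without DEM 2 (limma adjusted p = 0.0366) and under quantile normalization (0.0409), and Gstm7 without a variance trend (0.0303). Mu class genes are close relatives, and whether their probes share signal was not tested.

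Of the pi class, Gstp1 rose 2.28-fold (log2 1.19 ± 0.15 SE, limma adjusted p = 0.00465). Its probe lists accessions of both Gstp1 and Gstp2, and its call was lost without untreated 1 (limma adjusted p = 0.0514). Of the omega and zeta genes, Gsto1 rose 3.02-fold and Gsto2, a dehydroascorbate reductase gene like Gsto1, rose 2.20-fold, while Gstz1, which acts in tyrosine breakdown, fell by 1.07. Gsto2 and Gstz1 did not pass without untreated 1 (limma adjusted p of 0.0575 and 0.123 at the ends) or untreated 2 (0.0761 and 0.0987). Under spike-in scaling none of these 4 genes passed (limma adjusted p from 0.323 to 0.812).

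The theta class held the largest fall. Gstt1 went from 0.89 and 1.21 without DEM to -4.31 and -3.28 with it, a difference of -4.85 ± 0.37 (SE, limma adjusted p = 0.00127), and was well above background on 1 of the DEM arrays. Gstt4 rose by 2.39 ± 0.53, a call lost without untreated 1 (limma adjusted p = 0.105), without untreated 2 (0.118) and under spike-in scaling (0.0789). Gstt3 (-0.98) and Gstt2 (0.59) did not pass, though Gstt3 did without DEM 2 (limma adjusted p = 0.00219), with normexp correction (0.0364) and under quantile normalization (0.0497).

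Membrane-bound transferases, a family unrelated in fold to the cytosolic classes, were mostly lower. Of 5 measured, 4 fell and 0 rose. Alox5ap, counted here by family, presents arachidonic acid to the lipoxygenase of leukotriene synthesis and fell by 3.22. Mgst2, which can make leukotriene C, fell by 2.93. Mgst3 fell by 1.38, and Ptges, a prostaglandin E synthase, was at least 1.68-fold lower. Mgst1 (0.26) did not pass. The calls of Mgst3 and Ptges were lost without untreated 1 (limma adjusted p of 0.0524 and 0.0961 at the ends) and without untreated 2 (0.0592 and 0.0726), that of Mgst3 also with scaling to spike-in RNA (0.326) and that of Ptges with normexp correction (0.0566).

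**Figure D3:**
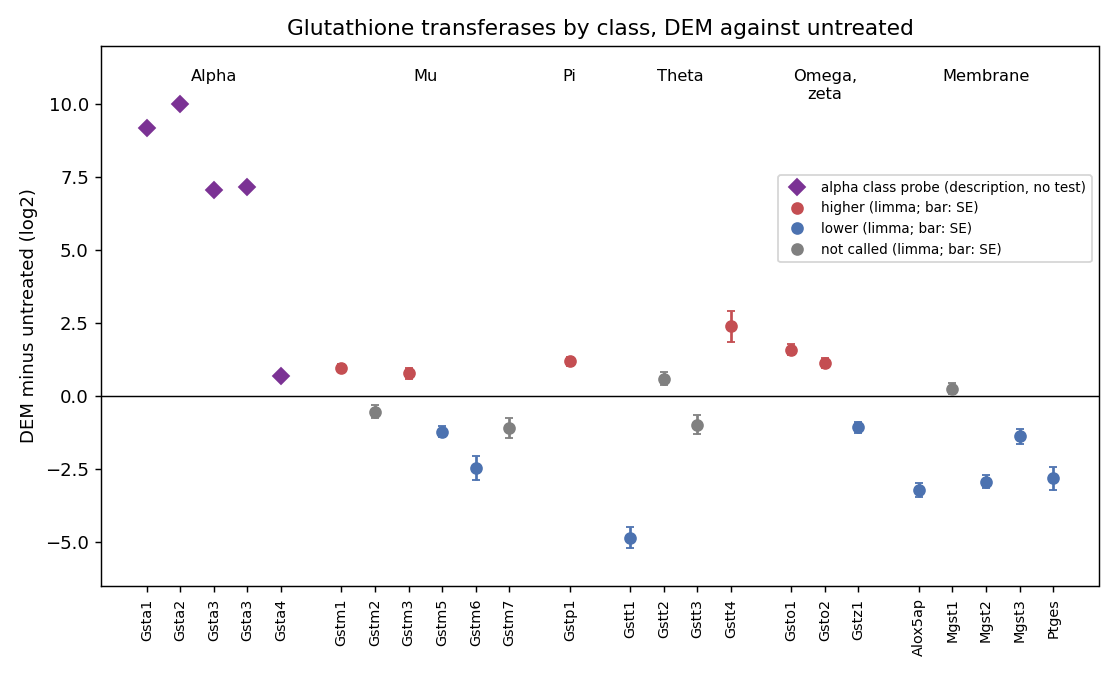
The plot gives the log2 difference between DEM and untreated cells for each measured gene of the glutathione transferase families, grouped by class. Circles are tested genes with SE bars, coloured by call, and purple diamonds are the alpha class probes, which were not tested. The tested genes lie between -4.85 and 2.39, the Gsta1 and Gsta3 probes between 7.07 and 9.19, and Gsta4 at 0.68; the Gsta2 value, drawn at 10.02, rests on untreated signals below background.

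The product of a transferase is a glutathione conjugate, which is pumped out of the cell and then trimmed to a mercapturate. Export and trimming were covered by 16 measured genes: 3 rose and 8 fell, beside 15.5% and 11.8% of all genes, with a median of -0.86. The 4 genes with the smallest p were lower. Anpep, an aminopeptidase of the cell surface, fell by 3.52 ± 0.19 (SE, limma adjusted p = 0.000649) and Dpep1, a dipeptidase that splits the cysteinylglycine conjugate, fell by 1.80. Abcc3, an export pump of conjugates, and Ggt6, of the gamma-glutamyltransferase family, were not well above background with DEM and were at least 10.09-fold and 5.13-fold lower. Other pumps on the list differed in direction. Abcc4 rose 2.98-fold (limma adjusted p = 0.0057) and Abcc1 rose 1.92-fold (limma adjusted p = 0.0282), while Abcg2 was 1.99-fold lower (limma adjusted p = 0.0282). Abcc5 (0.31) did not pass, and its probes differed in direction. All of these pumps were named after their values were seen. The calls of Abcc4 and Abcc1 were lost without untreated 2 and under spike-in scaling, and whether that of Abcg2 held there is not given. With untreated 1 left out, 1 gene was higher and 5 were lower, without untreated 2 the counts were 0 and 4, and under spike-in scaling 0 and 4, where Dpep1 did not pass (limma adjusted p = 0.105).

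Enzymes that clear the same reactive aldehydes by other routes counted 22 measured genes. Of these 5 rose and 4 fell, beside 15.5% and 11.8% of all genes, with a median of -0.025. Cbr3, a carbonyl reductase, rose 5.08-fold and the alcohol dehydrogenase gene Adh7 6.95-fold, while Adh1, of the same family, fell by 2.99. Akr1c18, an aldo-keto reductase, was not well above background without DEM and was at least 33.5-fold higher. Each of these calls had a limma adjusted p of at most 0.00318. Without untreated 1, 4 were higher and 2 lower, with the same counts without untreated 2.

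Factors known to act on alpha class genes or on NRF2 counted 18 measured genes. Of these 6 rose and 1 fell, beside 15.5% and 11.8% of all genes, with a median of 0.76. The small MAF genes Mafg and Maff, whose proteins pair with NRF2 on DNA, rose 3.77-fold (log2 1.91 ± 0.18 SE, limma adjusted p = 0.00228) and 3.08-fold. Sqstm1, an autophagy receptor that binds KEAP1, rose 4.85-fold, and Keap1 rose 1.83-fold. Nr1i3, a xenobiotic receptor of liver, rose 12.7-fold (limma adjusted p = 0.00925), with levels of -3.36 and -3.21 without DEM, and 1.35 and -0.58 with it, and Cebpb rose 2.15-fold; both were named after their values were seen. Bach2, a repressor that competes for the same DNA elements, fell by 1.64. Bach1 (0.88, limma adjusted p = 0.0573) and Mafk (0.82, limma adjusted p = 0.146), also named after their values were seen, did not pass. Nfe2l2, which encodes NRF2, differed by 0.71 ± 0.22 (SE) and did not pass (limma adjusted p = 0.0636), though it did without DEM 2 (0.0162) and with only probes well above background on all 4 arrays (0.0499). Ahr, the receptor of polycyclic hydrocarbons, differed by 0.028 ± 0.32 (SE) and did not pass (limma adjusted p = 0.956).

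The regulators counted 3 higher genes and 0 lower without untreated 1, the same without untreated 2, and 10 higher without DEM 2. The 3 left without either untreated array were Sqstm1, Mafg and Maff. Keap1 and Bach2 did not pass without untreated 1 (limma adjusted p of 0.0566 and 0.0954 at the ends) or untreated 2 (0.0548 and 0.0852). Under spike-in scaling Bach2, Keap1, Maff and Mafg did not pass (limma adjusted p from 0.158 to 1.00). Hnf4a, a factor of the liver program, and the xenobiotic receptor gene Nr1i2 did not pass the filter on dim probes.

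Gsta4, Gsta1 and Gsta2 lie in that order on chromosome 9, and Gsta3 lies on chromosome 1. Of 10 measured neighbours on chromosome 9, 4 rose and 0 fell, and of 10 on chromosome 1, 2 rose and 5 fell, beside 15.5% higher and 11.8% lower over all genes. Dppa5a, the gene next to Gsta2 and known from pluripotent cells, had levels of -2.54 and -2.57 without DEM, and 1.80 and 1.72 with it, a rise of 19.9-fold (limma adjusted p = 0.000649). Gclc, the catalytic subunit of the first enzyme of glutathione synthesis, lies on the other side of Gsta4 and rose 12.2-fold (log2 3.61 ± 0.19 SE). Cgas, the sensor of cytosolic DNA, rose 3.22-fold. Slc17a5, a lysosomal sialic acid transporter, rose 2.25-fold. Between Gclc and Gsta4 lie Elovl5 (0.031), Fbxo9 (-0.31) and Cilk1 (0.73), which did not pass, and farther out Lrrc1 (-0.28), Mto1 (0.24) and Eef1a1 (0.43) did not pass either. In chromosome order Dppa5a and Cgas, both called higher, are the nearest measured genes after Gsta2, followed by Mto1 and Eef1a1 and then Slc17a5. Whether genes along the stretch changed together was not tested. Other probes of Lrrc1 and Eef1a1 differed in direction from the one used.

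Around Gsta3, Mcm3, a subunit of the replicative helicase, rose 2.25-fold (limma adjusted p = 0.0307). Tmem14a fell by 1.05 (limma adjusted p = 0.0217). By chromosome, the median difference was 0.58 for the 10 neighbours on chromosome 9 and -0.73 for the 10 on chromosome 1. A median over both chromosomes therefore describes neither group. Over both chromosomes the neighbours counted 6 higher and 5 lower, with a median of 0.15 against 0.16 for all genes; without untreated 1 or untreated 2 they counted 3 higher and 0 lower, the 3 being Dppa5a, Gclc and Cgas, so the calls of Mcm3, Tmem14a and Slc17a5 were lost. Scaling to spike-in RNA left 2 higher and 1 lower, and Cgas did not pass (limma adjusted p = 0.345).

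**Figure D4:**
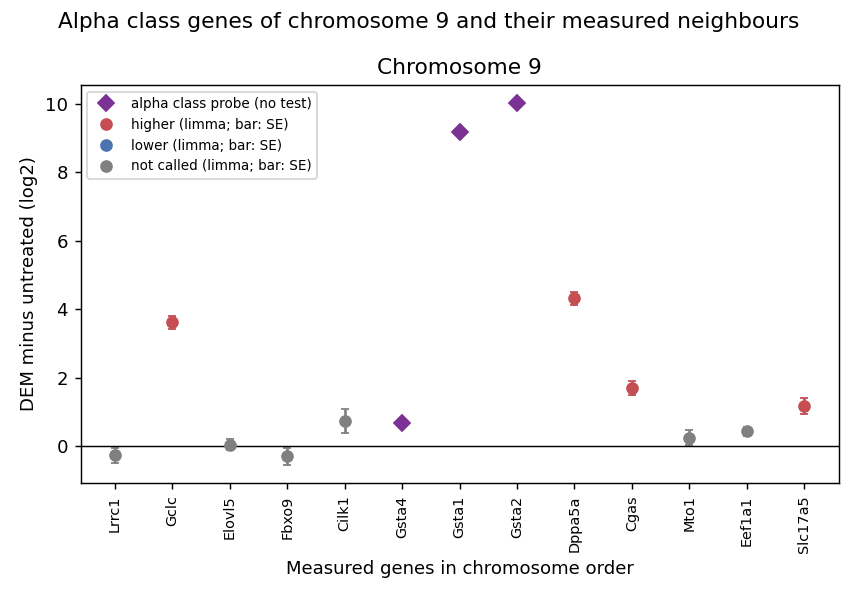
The plot gives the log2 difference between DEM and untreated cells for the alpha class probes of chromosome 9 (purple diamonds, not tested) and the measured genes nearest to them (circles with SE bars, coloured by call), in chromosome order without distances. Gsta1 stands at 9.19, and Gsta2 is drawn at 10.02, a value that rests on untreated signals below background, between Gsta4 at 0.68 and Dppa5a at 4.32.

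The 4 arrays lay on 1 slide and were scanned together, with the untreated arrays in the first row and the DEM arrays in the second, so row and treatment cannot be told apart. Between 47.8% and 52.7% of probe spots were well above background, no spot was saturated, and the 75th percentile of processed signal, by which levels are scaled, was 701 and 747 without DEM against 449.9 and 412 with it. Of 10 fibroblast markers, 10 were well above background on both untreated and 9 on both DEM arrays, and their summed level, as a multiple of the 75th percentile, was 992 and 1035 without and 592 and 680 with DEM; the part of this in the results above was not tested. Since alpha class transferases are abundant in liver, hepatocyte markers were read too. Of 9 on the array, Ttr, Apoa1, Fgb, Cps1, Cyp2e1, Hnf4a and Ahsg were not well above background on any array, and the summed level was 0.216 and 0.274 without and 0.279 and 0.272 with DEM. Epithelial markers summed to between 0.137 and 0.170, and 4 of 6 were not well above background on any array. The same held for 2 of 5 macrophage, 2 of 4 endothelial, 2 of 4 adipocyte and 2 of 4 steroidogenic markers, among them Adgre1, Ptprc, Cdh5, Kdr, Adipoq, Plin1, Cyp11a1 and Hsd3b1. In contrast, Krt8, Tat, Lyz2, Cd68, Fabp4, Lpl and Cyp17a1 were well above background on all 4 arrays. Adipocyte markers summed to between 9.06 and 12.9, while macrophage, endothelial and steroidogenic markers each summed to at most 0.768. In bulk RNA, fewer cells with a transcript and less transcript per cell cannot be told apart.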

How the data were processed

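RNA from transformed C3H10T1/2 cells was labelled with Cy3 and read on custom 1-colour Agilent arrays, with 1 sample on each, 2 untreated and 2 DEM-exposed, grouped by the source label. Spot intensity values were made by the authors with Agilent Feature Extraction 10.7.3.1, per the file headers, with background subtraction, detrending and substitutes for low signals. The deposited series table holds log2 values; after a constant per column, 99.98% or more of its values differed by under 0.01 from the levels used here, and it served as an alternative.

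Control spots and spots with an outlier mark were left out (130 probes). Log2 processed signal relative to the 75th percentile of probe spots was averaged per probe. Names came from the RefSeq gene table of GRCm38.p6 (34527 of 40628 gene probes matched by accession, symbol or synonym; 20679 NONCODE probes kept their names). The header names another build, so gene coordinates are not given; promoter windows carry the build of their own table. Probes well above background on at least 2 arrays were kept (31771) and the brightest stood for each gene. The test of DEM against untreated was limma 3.58.1 under R 4.3.3 (lmFit, eBayes with an intensity trend, two-sided, Benjamini-Hochberg over 24659 genes), tested on simulated data first; 3812 genes were higher and 2900 lower, and 10155 had an unadjusted p under 0.05. For a called gene not well above background in a group, a lower bound on its fold in processed signal is given. Such a bound does not hold with normexp correction, where Abcc3, Ggt6, Akr1c18, Ptges and Gstm6 had differences smaller than their bounds.

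The members and the gene lists were chosen with earlier results of these data known. In each list up to 4 genes with the smallest p, or all of a list with at most 8 measured genes, were named, beside Nfe2l2, Keap1, Ahr and Gclc; similar patterns and neighbours (5 measured genes on either side) followed fixed rules. Gm4846, first listed as an alpha class locus, is Fmo13 in the RefSeq table and was dropped. Promoter alignments used Biopython 1.88 (match 1, mismatch -1, gap opening -2, gap extension -0.5). Alternatives were normexp correction, quantile and spike-in scaling, the deposited log2 values, other filters on dim probes, no variance trend, the mean of all probes of a gene, a block for the replicate number, and leaving out 1 array at a time. Some genes that the naming rule covers are not reported here.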

Additional observations from a re-analysis of the deposited data

How the results depend on the processing

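The alpha class differences kept their sign under every setting that was run on them; normexp correction lowered those of Gsta1, Gsta2 and the Gsta3 probes to 7.73, 6.85, 6.26 and 5.91. Left out in turn, arrays gave 8.93 to 9.45 for Gsta1, 9.26 to 10.79 for Gsta2, 6.51 to 7.64 and 6.50 to 7.83 for the Gsta3 probes and 0.28 to 1.08 for Gsta4. Counts of genes higher and lower with DEM were 3812 and 2900; 6470 were higher with normexp, 17297 with no filter on dim probes (of 49740), and 363 higher and 889 lower with spike-in scaling. The share of called genes that were higher was 56.8%, against 70.0% with normexp, 46.9% with quantile normalization, 29.0% with spike-in scaling and 84.7% with no filter. Spike-in scaling moved the median of all genes by -0.16, and no filter moved it by 0.31. In log2 units above the 75th percentile, spike-in signal was 2.76 for untreated 1 but 3.41 for untreated 2. For DEM 1 it was 2.79, against 3.70 for DEM 2. Spike-in scaling thus moved the 2 arrays of a group by unequal amounts. How far that unevenness entered the calls lost under this scaling was not tested. With arrays left out the counts ranged from 644 to 4488 higher and 802 to 3814 lower. A fit with 1 array left in a group assumes that array to vary like the other group.

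With spike-in scaling other transferases were 0 higher and 5 lower, the export list 0 and 4, the aldehyde list 3 higher, the regulators 2 and 0 and the neighbours 2 and 1. The export list had 7 higher with no filter and 5 lower with only probes well above background on all 4 arrays, where other transferases had 5 lower. With arrays left out, other transferases ranged from 1 to 6 higher and 3 to 10 lower, the export list from 0 to 3 and 4 to 9, the aldehyde list from 4 to 6 and 2 to 5, the regulators from 3 to 10 and 0 to 1 and the neighbours from 3 to 6 and 0 to 6. The cause of these shifts was not tested.

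The replicate number as a block cannot move a difference in this balanced layout. It gave 4473 higher and 3378 lower genes, and Gstm2, Gstt3 and Nfe2l2 passed with it (limma adjusted p of 0.0357, 0.0245 and 0.0123). Deviations of same-numbered arrays from their group means had a correlation of 0.084 over genes. Whether such arrays share more than a number is not stated in the labels, and this value cannot decide it.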
